A study of Mus musculus with 4 samples.

Results

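Notch receptors, their ligands and the Hes and Hey genes that lie downstream of them were followed in single cells of the medial ganglionic eminence (MGE), a germinal zone in the ventral forebrain, taken from e14.5 mouse embryos. The 10 genes were taken by their symbols from the 32285 genes of the count tables, and all 10 had counts: the receptors Notch1, Notch2 and Notch3, the ligands Dll1, Dll3 and Jag1, the target genes Hes1, Hes5 and Hey1, and Hes6. The data are 4 droplet libraries (10x Genomics) of single-cell RNA from embryos of St18(-/+) parents on a C57/BL6 ICR mix background, 2 from St18(-/-) embryos, which lack St18 in the whole animal and are called null here, and 2 from wildtype embryos, called WT. MGE tissue of genotyped embryos was pooled by genotype, and the pools were dissociated apart. The 2 libraries of a genotype are described as biological replicates, and the number of embryos per pool was not given in the sources used here. Between genotypes, p-values measure the spread between these libraries. Between sets of cells, they measure how far the difference within a library varies from library to library. Replicate numbers only name the libraries. The libraries allow a comparison of ligands and targets over cells from dividing progenitor to neuron, and of each between embryos with and without St18, a zinc finger transcription factor.

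In the Notch pathway a ligand on the surface of a cell binds a Notch receptor on its neighbour, the receptor is cut, and its freed inner part enters the nucleus and acts with the DNA-binding protein RBPJ to switch on genes such as Hes1 and Hes5. The Hes proteins repress proneural genes, and proneural factors switch on Dll1, so that a cell with high Hes tends to hold a low level of ligand and to signal less to its neighbours. This lateral inhibition is known to keep radial glia of the ventricular zone (VZ) as progenitors while their neighbours go on to make neurons. Dll3 acts within the cell and does not activate receptors on neighbours, and Hes6 is a Hes relative that opposes Hes1 rather than acting as a Notch target.

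Promoter sequence, from RefSeq on build GRCm38.p6, was found for 8 of the 10 genes, and 3 are shown because these genes carry the contrast between target and ligand below. Each runs 5′ to 3′ on the strand of the gene, from 250 bases before the annotated start to 50 bases after it, and capitals mark matches to the RBPJ core letters TGGGAA on either strand. The first is Hes5 (chr4:154960673-154960972, plus strand), the second is the upstream of the Dll1 starts (chr17:15376883-15377182, minus strand) and the third is Dll3 (chr7:28301736-28302035, minus strand).
Hes5: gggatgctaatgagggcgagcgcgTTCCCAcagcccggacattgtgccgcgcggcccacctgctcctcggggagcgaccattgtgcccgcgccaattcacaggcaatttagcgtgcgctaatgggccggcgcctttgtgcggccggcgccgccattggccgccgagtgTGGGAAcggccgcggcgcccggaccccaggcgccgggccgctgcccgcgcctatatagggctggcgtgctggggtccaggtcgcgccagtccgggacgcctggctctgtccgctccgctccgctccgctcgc
Dll1: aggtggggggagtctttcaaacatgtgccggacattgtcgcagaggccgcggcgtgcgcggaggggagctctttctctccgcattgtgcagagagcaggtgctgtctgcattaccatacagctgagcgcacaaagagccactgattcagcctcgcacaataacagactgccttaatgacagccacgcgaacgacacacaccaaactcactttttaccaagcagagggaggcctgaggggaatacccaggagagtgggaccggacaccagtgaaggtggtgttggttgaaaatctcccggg
Dll3: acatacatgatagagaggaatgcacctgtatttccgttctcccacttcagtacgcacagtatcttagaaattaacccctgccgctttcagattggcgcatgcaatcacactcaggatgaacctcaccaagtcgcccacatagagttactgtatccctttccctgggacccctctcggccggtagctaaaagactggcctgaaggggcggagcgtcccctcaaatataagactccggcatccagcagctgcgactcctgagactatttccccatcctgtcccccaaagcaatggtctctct
The Hes5 window held 2 matches, TGGGAA with its first base 82 bases before the start and TTCCCA, the same letters on the other strand, 226 bases before it. No match was found in the windows of Dll1, Dll3, Hes6, Jag1, Notch1, Notch2 or Notch3. Of 32851 mouse promoter windows of the same length, 25.6% held at least 1 match, so these letters are common and a match is only a description. The N box letters CACNAG, bound by Hes factors, occurred in 42.5% of all windows and in the upstream Dll1 window 1 time, 13 bases after the start. It was also found in a window of Notch1 (3 times, 2 of them overlapping), Hes6 (2), Notch3 (2) and Notch2 (1), and not in the windows of Hes5, Dll3 or Jag1 or the other window of Dll1.

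Cells were kept with at least 3000 unique molecular identifiers (UMIs, each counting 1 captured RNA molecule), 200 genes or more and a mitochondrial share of up to 10%. This gave 19031 cells, from 3878 to 6631 per library with median depths of 6186 to 9352 UMIs out of 70991150 to 92984713 UMIs per library, and removal of the top doublet scorers left 18267. Libraries shared 4 to 11 cell barcodes per pair. Clustering was run without the 10 genes and a wider list of 47 pathway genes. Clusters were then named from fixed markers, which gave 2220 VZ progenitor-like cells in 3 clusters, 4879 basal progenitor-like cells, the dividing cells of the subventricular zone, in 5, 6651 newborn neuron-like cells in 6 and 3199 maturing neuron-like cells in 7. The classes are called VZ, basal, newborn and maturing below. Maturing clusters were led by genes such as Isl1, Six3, Adarb2 and Slc18a3, which mark different subpallial neurons, so stage and kind of neuron cannot be told apart in that class. A pair of clusters whose cell cycle phase went against their class, 977 cells, stayed unnamed.

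St18 itself was counted at 12.7 and 38.0 CPM (counts per 1e+06, the UMIs of a gene over all UMIs of the cells summed, scaled) in the progenitors of null replicates 1 and 2, against 25.7 and 30.3 CPM in WT replicates 1 and 2. For genotypes, progenitors are VZ and basal cells summed, and neurons are newborn and maturing cells summed. In neurons the values were 25.2 and 79.0 CPM in the null libraries and 44.7 and 59.8 CPM in the WT libraries. The library labelled null replicate 2 thus had more St18 than either WT library in both. The null allele came from germline Cre recombination of loxP sites around a pair of St18 exons, which shifts the reading frame but leaves a transcript, and counts per gene do not separate this transcript from an intact one. Transcripts with an early stop are known to be prone to decay, so a lower count would be the usual direction, and null replicate 2 went the other way, but the count alone does not settle the label. The paper reports that St18 transcript remained in null samples and was significantly lower in null neurons, with the values shown by genotype. In clusters 8 and 1, picked from the 6 newborn clusters, the shares of both null libraries departed from the WT shares in a common direction. Cluster 8 held 368 of 6279 and 443 of 3758 cells in the null libraries against 88 of 4348 and 63 of 3882 in the WT libraries. Cluster 1 held 400 and 64 of the same totals against 587 and 450. There the share in null replicate 1 lay between those of null replicate 2 and the WT libraries. Clusters 0, 5 and 6 also had both null shares on the same side of both WT shares. Cluster 0, with 558 and 269 against 399 and 353, was lower in the null libraries. Cluster 5, with 406 and 301 against 262 and 127, was higher, and cluster 6, with 297 and 172 against 250 and 257, was lower. Cluster 15, with 169 and 167 against 85 and 116, did not separate the genotypes by share. This makeup was not tested as a check of the label. Genotype names below are those of the labels, and the calls among the 10 genes between genotypes are also given without the library labelled null replicate 2.

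Targets and receptors were highest in VZ cells and Dll1, Dll3 and Hes6 were highest in basal progenitors. Hes5, the main Notch effector of neural progenitors, stood at 832, 740, 916 and 899 CPM in the VZ cells of null replicates 1 and 2 and WT replicates 1 and 2, the order used for all lists of 4 values. In basal progenitors it stood at 155, 146.0, 190 and 158 CPM, so that every VZ value lay far above every basal value. The fall passed the test (log2 fold change -2.31 ± 0.06 SE, edgeR quasi-likelihood test, adjusted p = 1.33e-24). Hes1, a Hes repressor that sustains progenitors, went from 79.9, 94.4, 89.5 and 72.4 CPM in VZ cells to 6.78, 7.59, 9.98 and 7.84 CPM in basal cells. It was lower in basal cells (log2 -3.33 ± 0.08, adjusted p = 1e-24), where its share of cells was within the background interval given below, so no exact fold is read. Hey1, a related repressor, averaged 19.1 ± 3.24 CPM (SD, n = 4 libraries) in VZ cells and 4.28 ± 0.506 CPM in basal cells, also without overlap (log2 -2.05 ± 0.13, adjusted p = 1.34e-14).

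The Delta ligands moved the other way between the same classes. Dll1, which activates Notch on neighbouring cells, was at 22.5, 35.4, 25.2 and 25.1 CPM in VZ cells and at 61.8, 77.9, 65.9 and 57.8 CPM in basal progenitors, higher in basal cells of all 4 libraries (2.61-fold, log2 1.38 ± 0.07, adjusted p = 7.28e-17). Dll3 rose from 23.4, 23.1, 19.3 and 20.5 CPM to 92.3, 78.9, 77.4 and 71.9 CPM (log2 1.98 ± 0.07, adjusted p = 3.35e-21). Hes6 was at 131, 118, 113 and 99.5 CPM in VZ cells and at 222, 154, 165 and 147 CPM in basal cells. Its rise was smaller (log2 0.65 ± 0.05, adjusted p = 1.58e-12), though again no basal library reached down to the VZ range. Jag1, a ligand of the Serrate family, did not follow the Delta genes: it stood at 37.1, 46.6, 28.2 and 20.5 CPM in VZ cells and at 13.6, 13.7, 10.5 and 10.6 CPM in basal cells (log2 -1.39 ± 0.1, adjusted p = 9.23e-14).

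The 3 receptors fell from VZ to basal cells by unequal amounts. Notch1 was at 367, 424, 241 and 214 CPM in VZ cells and at 225, 273, 185 and 186 CPM in basal cells, and the 2 ranges overlapped. Its fall was 1.34-fold and was seen within each library (log2 -0.42 ± 0.05, adjusted p = 4.05e-08). Notch2 averaged 23.8 ± 6.45 CPM in VZ cells and 6.85 ± 1.84 CPM in basal cells (log2 -1.74 ± 0.11). Notch3 averaged 31.3 ± 7.94 and 4.86 ± 1.65 CPM (log2 -2.6 ± 0.11, adjusted p = 1.21e-18). In all, 3 of the 10 genes were higher and 7 lower in basal cells, where 64.3% of the 13475 genes tested differed, 33.2% higher and 31.1% lower, so that passing the threshold was common in this comparison. The median log2 difference was -1.56 over the 10 genes and 0.02 over the genes tested.

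**Figure D1:**
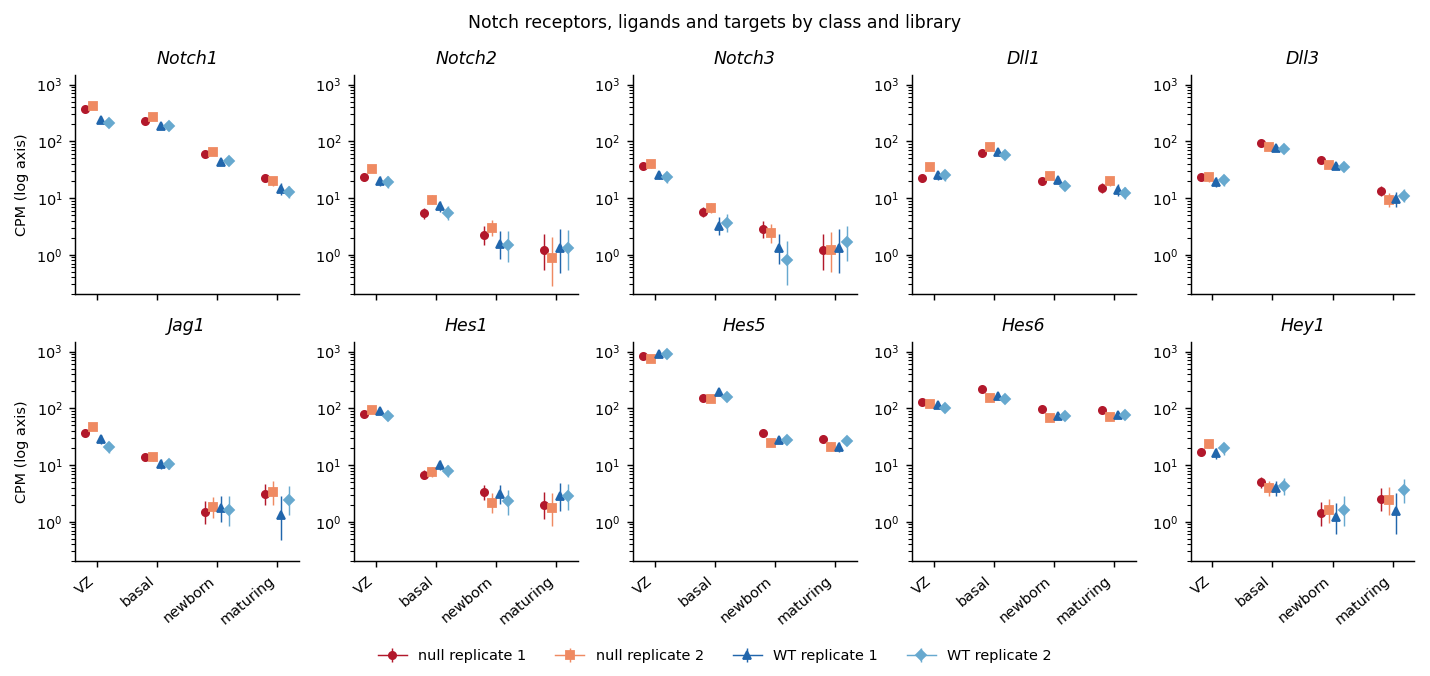
CPM of each gene (log axis) in the 4 classes, 1 point per library with its exact 95% Poisson interval, which covers counting error only. Hes5, Hes1, Hey1, Jag1 and the receptors are highest in VZ cells, while Dll1, Dll3 and Hes6 peak in basal progenitors.

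From basal progenitors to newborn neurons every one of the 10 genes fell, in a comparison in which 36.3% of genes were lower and 72.9% differed. For 5 of them, Notch2, Notch3, Jag1, Hes1 and Hey1, the share of cells was within the background interval in both classes. Dll1 dropped to 19.6, 24.3, 20.4 and 16.5 CPM (3.4-fold, log2 -1.77 ± 0.07, adjusted p = 1.21e-20), below its level in each library's basal cells. Dll3 was at 47.8, 38.2, 36.5 and 35.8 CPM, the smallest fall of the 10 (2.12-fold, log2 -1.08 ± 0.06), and remained above its VZ range. Notch1 averaged 53.3 ± 10.6 CPM (log2 -2.1 ± 0.06), Hes6 77.5 ± 14 CPM (log2 -1.22 ± 0.05) and Hes5 29.1 ± 4.94 CPM (log2 -2.52 ± 0.07). Jag1, one of the 5, averaged 12.1 ± 1.82 and 1.68 ± 0.149 CPM (log2 -2.95 ± 0.16, adjusted p = 1.01e-16).

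Between newborn and maturing neurons Dll3 and Notch1 fell again. Dll3 was at 13.2, 9.43, 9.47 and 11 CPM in maturing cells (log2 -1.92 ± 0.08, adjusted p = 1.06e-18) and Notch1 at 22.6, 19.7, 14.54 and 12.7 CPM (log2 -1.66 ± 0.09, adjusted p = 2.07e-16), each below its newborn range. Dll1 changed less, with 15.1, 19.9, 14.1 and 12.3 CPM against the newborn values above (log2 -0.45 ± 0.09, adjusted p = 8.06e-05), and these ranges overlapped. Hes6 averaged 78.9 ± 10 CPM against 77.5 ± 14 CPM, and the difference did not pass the test (log2 -0.03 ± 0.06, adjusted p = 0.711). In all, 2 genes were higher and 5 lower, where 59.3% of all genes differed, 28.7% higher and 30.5% lower. The 2 higher genes, Jag1 and Hey1, averaged 2.54 and 2.53 CPM, and leaving out null replicate 1 (adjusted p = 0.297 and 0.0624) or WT replicate 2 (0.0536 and 0.0935) ended both calls. Placing the 2 unnamed clusters in the class they scored for, a choice made after the data were seen, ended both as well (0.136 and 0.154). In that setting, and without WT replicate 2, 6 genes were lower. The call for Jag1 was also lost without null replicate 2 (0.161), with no filter on low counts (0.0505), with doublet-scored cells kept (0.0706) and with no library block (0.119), where the fall of Hes5 was lost too (0.199). Without null replicate 2 the fall of Notch2, which averaged 1.18 CPM in maturing cells, was also lost (adjusted p = 0.177).

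**Figure D2:**
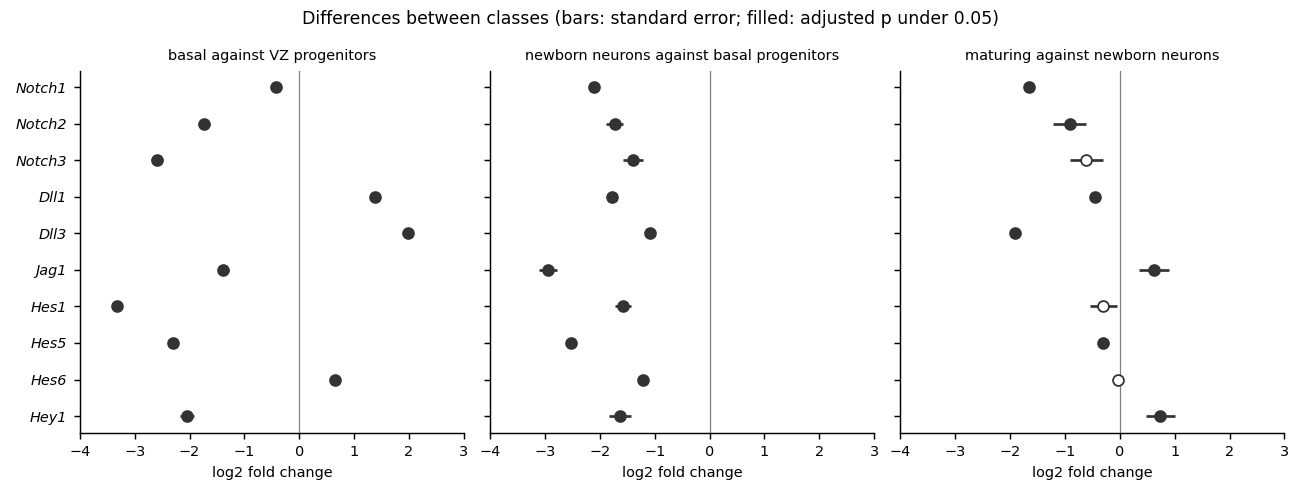
Log2 fold change (points) with its standard error (bars) of each gene in the 3 class comparisons; filled points passed an adjusted p of 0.05 in edgeR. The Delta ligands and Hes6 lie right of 0 for basal against VZ cells, and all 10 genes lie left of 0 for newborn neurons against basal progenitors.

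Shares of cells with a UMI peaked in the same class for each of the 10 genes when each cell was thinned to 3000 UMIs, which left out no cell. At that depth 69.4% ± 3.27 (SD, n = 4) of VZ cells held a Hes5 UMI, against 19.8% ± 1.89 of basal cells, and Dll1 was found in 7.52% ± 0.959 of VZ and 17.2% ± 1.63 of basal cells. Without thinning the Hes5 shares were 83.3% ± 3.03 and 37.3% ± 2.95 and the Dll1 shares 18.3% ± 3.43 and 39.7% ± 9. Free RNA was gauged from 153 erythroid-like cells, which should lack these genes, at a median of 11387 UMIs before thinning against 9283.5 in VZ cells and 5721 in newborn cells. Of these, 6 held Hes5 (3.92%, exact 95% interval 1.45 to 8.34%), 3 held Dll3 (1.96%, 0.406 to 5.62%) and 1 held Hes6 (0.654%, 0.0165 to 3.59%), while 0 of 153 held Dll1, Notch2, Notch3 or Hey1, which allows a share of up to 1.96% as 3 counts of the total and 2.38% as the exact upper bound. In basal cells Hes1 (1.9% ± 0.493), Notch2 (1.91% ± 0.452), Notch3 (1.77% ± 0.555), Hey1 (1.33% ± 0.0917) and Jag1 (3.17% ± 0.785) lay within these intervals at their means, the one for Hes1 and Jag1 reaching 3.59%, so fold changes against those levels have no exact size. This overlap holds at 3000 UMIs. Without thinning the basal shares were 5.45% for Hes1, 6.7% for Notch2, 4.67% for Notch3, 3.83% for Hey1 and 8.8% for Jag1. The erythroid-like shares were then 1.31% for Hes1, Hey1 and Jag1 and 0% for Notch2 and Notch3, each below the basal share.

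In 95 microglia-like cells, which may express some of these genes themselves and had a median of 10358 UMIs, the shares were higher, at 10.5% for Hes5 (5.16 to 18.5%), 15.8% for Hes6 (9.12 to 24.7%), 18.9% for Notch1 (11.6 to 28.3%) and 1.05% for Dll1 (0.0266 to 5.73%). By both measures Hes5 in neurons could not be told from background. Newborn cells with Hes5 made up 7.95% ± 1.01 and maturing cells 7.28% ± 0.787, both inside the erythroid-like and microglia-like intervals, and barcodes with under 100 UMIs, which hold free RNA, had Hes5 at 258 to 286 CPM. Hes1, Notch2, Notch3, Jag1 and Hey1 were found in less than 1% of either neuron class, also within the erythroid-like intervals. Dll1 (5.36% ± 1.07 of newborn and 4.61% ± 0.485 of maturing cells) and Hes6 (20.1% ± 2.68 and 20.8% ± 2.79) lay above the erythroid-like intervals but within the microglia-like ones. The same held for Notch1 in newborn cells (13.3% ± 2.88), while in maturing cells (4.41% ± 0.626) it lay within the erythroid-like interval of 0.717 to 6.56%. Dll3 in newborn cells (10.5% ± 1.17) lay above both, the microglia-like one reaching 7.4%, and in maturing cells (3.13% ± 0.552) within both. In VZ cells Dll3 (6.41% ± 0.357), Notch2 (6.84% ± 1.61), Jag1 (8.79% ± 1.19) and Hey1 (5.22% ± 1.06) lay above the erythroid-like intervals and within the microglia-like ones. For the genes within these intervals the differences between newborn and maturing neurons are values only.

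The barcodes with under 100 UMIs held Dll3 at 43.4, 30.9, 28.3 and 20.5 CPM, at or above its VZ level and below its newborn level in each library. Their Hes6 (103 to 176 CPM) and Notch1 (62.4 to 118 CPM) were above the newborn level in each library, and their Dll1 (13.1 to 27.2 CPM) overlapped its newborn and VZ levels. Their Hes6 was also above its VZ level in each library, and their Hes5 above its basal level. The sizes of the changes of Dll3, Hes6 and Hes5 between VZ and basal cells are therefore set against levels at or below the level in free RNA. The same holds for Dll1 in null replicate 1 and WT replicate 1, where free RNA had 24.6 and 27.2 CPM. In null replicate 2 and WT replicate 2 free RNA, at 22.9 and 13.1 CPM, was below the VZ level of Dll1. These are levels within free RNA, and its share of the UMIs of a cell was not measured. The erythroid-like cells, pooled over libraries, had Hes5 at 10.1, Dll3 at 3.94, Hes6 at 3.38 and Dll1 at 0.563 CPM. Each of these values was below the VZ and basal levels of its gene.

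Single clusters showed where ligand and target were each strongest. Basal cluster 7 held the highest pooled Dll1 and Dll3 of the 21 clusters of the 4 classes, 106 and 138 CPM, and Dll1, Dll3 and Mfng were among its 10 leading genes although none of them had been used for clustering. Mfng encodes a glycosyltransferase that modifies Notch. In that cluster Hes5 was at 58.5 CPM and Jag1 at 3.2 CPM. The marker score of cluster 7, a mean z-score over clusters, was 0.8238 for basal and 0.7386 for newborn markers. With 37.04% of its cells in G1, against 0% in the other basal clusters, its basal name is less sure. Those other clusters had Dll1 at 40 to 93 CPM and Dll3 at 59.4 to 99 CPM. Basal cluster 9, led by the S phase genes Cdc6 and E2f1 and by Gadd45g and Gsx1, had high values of both kinds: Dll1 at 93 CPM, Dll3 at 99 CPM, Hes6 at 294 CPM, Hes5 at 387 CPM and Jag1 at 29.6 CPM. Its Hes6 level was the highest of any of the clusters.

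The 3 VZ clusters also differed. Cluster 17, led by Bcan, Fabp7 and Slc1a3 and with 70.8% of its cells in G1, had the highest Hes5 of all, 1212 CPM, yet also the highest Dll1 and Dll3 of the VZ clusters, 53.3 and 61.5 CPM. In cluster 2, led by Ptx3 and Rgcc and with Hes1 among its leading genes, the same 3 genes were at 820, 22.8 and 14.8 CPM. Cluster 18 had 275 CPM of Hes5 and the lowest depth, a median of 4180 UMIs. Its marker score, a mean z-score over clusters, was 1.505 for erythroid and 0.8553 for VZ markers. Too few erythroid markers passed for an erythroid name, so its VZ name is less sure. Among neurons, Dll3 was highest in newborn cluster 0, which St18 led, at 76.9 CPM, and Dll1 in maturing cluster 19, at 39.7 CPM. Cluster 19 scored 0.6432 for maturing and 0.6361 for newborn markers, so its class is close to a tie. The other maturing clusters had Dll1 at 10.6 to 16 CPM. These are descriptions, since the cells had been sorted into clusters by their other genes.

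**Figure D3:**
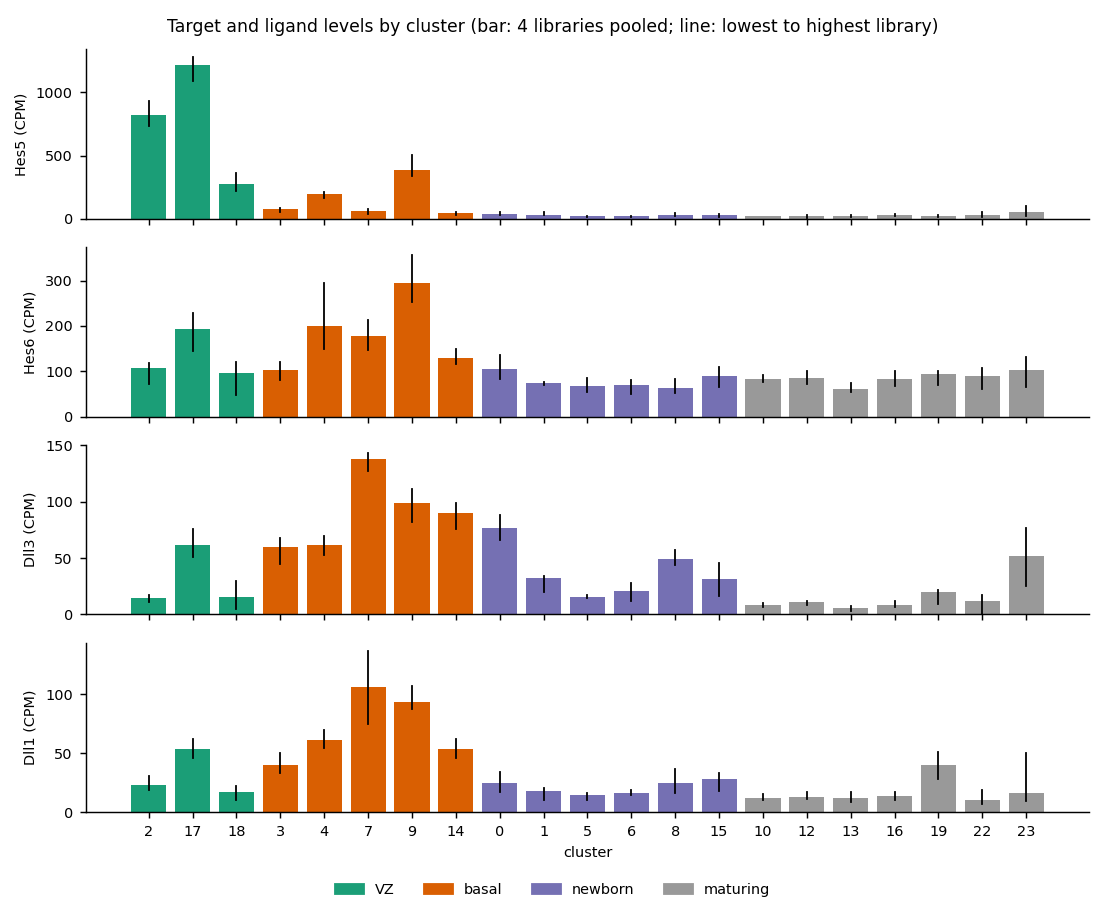
Pooled CPM of Hes5, Hes6, Dll3 and Dll1 in the 21 clusters, coloured by class, with lines from the lowest to the highest library. Hes5 is tallest in VZ clusters 2, 17 and 18 and basal cluster 9, and Dll1 and Dll3 peak in basal cluster 7.

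Over these 21 clusters, which share libraries and differ in depth, log2(CPM + 1) of Dll1 ran with that of Hes6 (Pearson r = 0.834) and Dll3 (r = 0.832) and less with that of Hes5 (r = 0.499) and Hes1 (r = 0.294). Jag1 ran with the targets, at r = 0.948 with Hes5 and r = 0.894 with Hes1. Among 8618 genes with a mean of at least 10 CPM, those most like Dll1 were Map1a (r = 0.886), Elavl1 (0.877), Zfp422 (0.877) and Rffl (0.868). Those most like Hes5 were Ednrb (r = 0.971), Zfp36l2 (0.966), Dbi (0.962) and Zfp36l1 (0.961), where Ednrb and Dbi had served as VZ markers in naming the clusters. For Jag1 they were Lap3 (r = 0.959), Ccnd1 (0.955), Btg3 (0.952) and Hes5, and for Hes6 they were Mapkapk2 (r = 0.908), Tead1 (0.876), Gadd45g (0.874) and F2r (0.859).

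Cells were next split by whether they held a UMI of a Delta ligand (Dll1 or Dll3), of a target (Hes1 or Hes5), of both or of neither, at 3000 UMIs each. Dll3, which does not activate receptors on neighbours, was in 22.1% of basal cells and Dll1 in 17.2%. A ligand cell in this split is therefore not always one with an activating ligand. VZ cells with a target and no ligand made up 68.4, 61.9, 69.2 and 67.2%, and those with a ligand and no target 4.67, 5.67, 4.14 and 5.68%. In basal progenitors the order was turned: 27.3, 29.5, 26.2 and 24.8% held a ligand alone and 12.2, 12.1, 14.8 and 14.2% a target alone, with no overlap between the 2 kinds in any library. Cells with both were 7.77% ± 0.543 of VZ and 7.35% ± 0.827 of basal cells (SD, n = 4), and cells with neither 20.5% ± 2.74 and 52.4% ± 0.768. Newborn neurons with a ligand alone averaged 13.8% ± 1.4 and with both 1.26% ± 0.0607. Without thinning, both were found in 21.4% ± 3.26 of VZ and 27% ± 4.45 of basal cells.

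**Figure D4:**
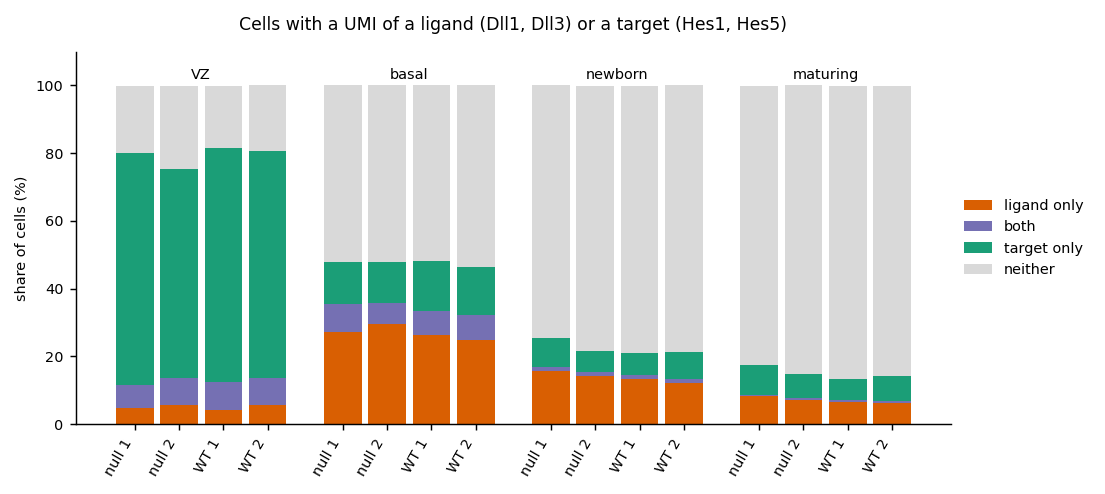
Share of cells (%) in each class and library with a UMI of Dll1 or Dll3 alone, of Hes1 or Hes5 alone, of both or of neither, in cells thinned to 3000 UMIs. Target-only cells fill 61.9 to 69.2% of the VZ bars, and ligand-only cells 24.8 to 29.5% of the basal bars.

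Within VZ cells Dll1 and Hes5 met in the same cell less often than their separate shares would give. The 4 libraries had 30, 23, 21 and 19 cells with both, where independent detection would give 37.8, 27.1, 24.6 and 23.5. The ratios were 0.793, 0.848, 0.852 and 0.807, below 1 in 4 of 4 libraries, and put another way 56.6, 54.8, 60 and 57.6% of cells with Dll1 held Hes5, against 72.4, 65.5, 71.2 and 72.6% of those without. Dll3 and Hes5 had ratios of 0.808, 0.61, 0.663 and 0.571, and Dll1 and Hes1 a median of 0.741 (0.433 to 0.902), on 20 cells with both. In contrast, Dll1 and Hes6 were found together more often than that (median ratio 1.7, 1.36 to 2.48), as were Dll3 and Hes6 (2.25, 1.61 to 2.71) and Dll1 and Jag1 (1.97, 1.41 to 2.77). Jag1 and Hes5, which ran together over clusters, had ratios of 0.909, 0.85, 0.901 and 0.904, below 1 in 4 of 4 libraries. These ratios are descriptions with no test.

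The ratio for Dll1 and Hes5 lay below 1 in both larger VZ clusters taken alone, at 0.847 in cluster 2 (61 cells with both, 72.1 given by independence) and 0.649 in cluster 17 (24 cells, 37), below 1 in 4 of 4 libraries each. In cluster 18 it was 1.03, on 8 cells. In basal progenitors it was 1.01 at the median and above 1 in 2 of 4 libraries (1.07, 0.945, 0.848 and 1.41), and Dll3 and Hes5 stood at a median of 0.99. Among single basal clusters it was 0.831 in cluster 9, below 1 in 4 of 4 libraries, 0.826 in cluster 4, and clusters 7, 3 and 14 had ratios of 1.22, 1.45 and 1.18. At 5000 UMIs the ratio stayed below 1 in 4 of 4 libraries in VZ cells (median 0.874) and was above 1 in 4 of 4 in basal cells (1.14). Several other pairs were found together in basal cells more often than independence gives: Dll1 with Dll3 at a median of 1.32, Dll1 with Hes6 at 1.31 and Notch1 with Hes5 at 1.25, each above 1 in 4 of 4 libraries. The same held for Hes5 with Hes6, at 1.14, 1.36, 1.13 and 1.22. Within clusters 9, 4, 7, 3 and 14, Dll1 with Hes6 had ratios of 1.07, 1.41, 1.23, 1.18 and 1.04. Only in clusters 4 and 7 were they above 1 in all libraries. Dll1 with Dll3 had ratios of 1.16 to 1.29 within these clusters, above 1 in all libraries only in cluster 14. How much of the class ratios lies between clusters was not tested. Pairs with Hes1 or Jag1 are not read in basal cells, where both genes lay within the background intervals. In newborn neurons 27 cells held both Dll1 and Hes5, and Hes5 there was at background, so no pattern is read.

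A comparison of the summed counts of cells with and without a Dll1 UMI tested this across libraries. In VZ cells, 163 with Dll1 and 2057 without, 2 of the 9 other genes were higher in the cells with Dll1 and 1 was lower, where 2.98% of the 8346 genes tested differed (1.27% higher, 1.71% lower). Hes5 was at 661, 596, 619 and 637 CPM in the cells with Dll1 and at 907, 701, 985 and 930 CPM in those without, lower in each library (log2 -0.54 ± 0.09, edgeR, adjusted p = 2.63e-06). Hes6 was at 378, 310, 219 and 283 CPM against 144, 134, 122 and 89.6 CPM, higher with no overlap (log2 1.23 ± 0.16, adjusted p = 3.73e-12). Dll3 was at 107, 71.5, 28.6 and 60.6 CPM against 23.7, 22.1, 26.1 and 20.6 CPM, on 17, 9, 3 and 6 UMIs in the cells with Dll1 (log2 1.55 ± 0.33, adjusted p = 0.000331), and WT replicate 1 hardly differed. Hes1 (log2 -0.65 ± 0.29, adjusted p = 0.268), Jag1 (0.89 ± 0.32, 0.125) and Notch1 (0.02 ± 0.14, 0.984) did not pass.

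Cluster 17 held 30.7% of the VZ cells with Dll1 and 17.4% of those without. Leaving it out, a choice made after the data were seen, left Hes6 past the threshold (log2 1.28, adjusted p = 4.94e-08), while Hes5 (log2 -0.33, adjusted p = 0.155) and Dll3 (log2 1.46, adjusted p = 0.159) kept their direction and lost the call. Leaving out null replicate 1 also ended the call for Dll3 (log2 1.19, adjusted p = 0.188). Without the library as a block the Hes5 call was lost too (log2 -0.5, adjusted p = 0.222). At 5000 UMIs per cell Hes1 (log2 -1.09, adjusted p = 0.000162) and Notch2 (-1.3, 0.0454) passed as well, both lower.

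In basal progenitors, 840 with Dll1 and 4039 without, 2 of 8 genes tested were higher and 0 lower, where 1.98% of 9789 genes differed, 0.766% higher and 1.22% lower. Hes6 was at 271, 215, 249 and 219 CPM in the cells with Dll1 and at 202, 144, 143 and 138 CPM in those without (log2 0.6 ± 0.08, adjusted p = 3.79e-12), again without overlap. Dll3 was at 149, 113, 108 and 90.9 CPM against 91.3, 85.5, 69.2 and 83.7 CPM (log2 0.54 ± 0.1, adjusted p = 4.91e-05), a call that ended without null replicate 1 (log2 0.42, adjusted p = 0.134), with doublet-scored cells kept (0.29, 0.196) and in DESeq2 (0.51, 0.064). Notch1 passed with doublet-scored cells kept (0.25, adjusted p = 0.0375) and at 5000 UMIs (0.24, 0.00107). Without the library as a block neither call held (Hes6 0.62, adjusted p = 0.709, and Dll3 0.52, 0.816). Hes5 was at 160, 125, 162 and 199 CPM against 148, 135, 182 and 154 CPM, higher in 2 libraries and lower in 2 (log2 0.06 ± 0.09, adjusted p = 0.849). The difference between VZ and basal cells in the Hes5 contrast was not tested. Hey1 had too few counts to be tested.

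**Figure D5:**
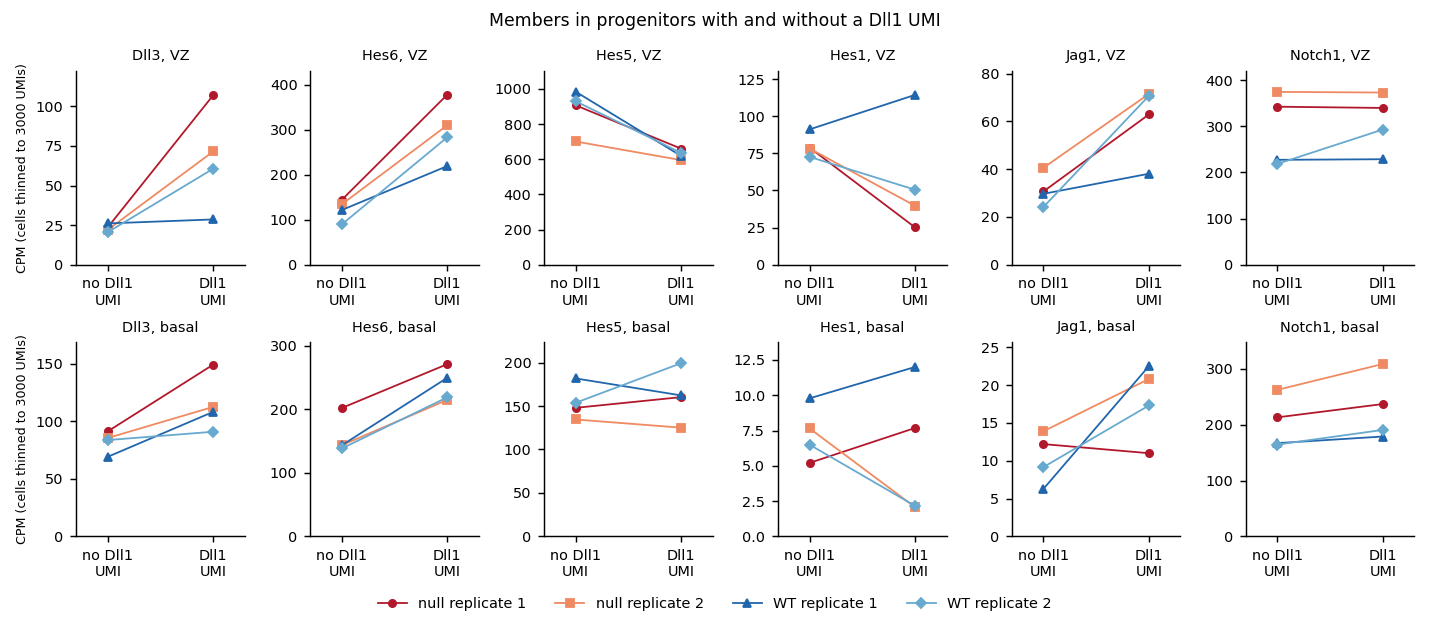
CPM of 6 genes in cells without (left) and with (right) a Dll1 UMI, after thinning to 3000 UMIs, in VZ (upper row) and basal progenitors (lower row), with a line per library. Hes5 falls in each library in VZ cells and has no common direction in basal cells, while Hes6 rises in each library in both.

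Outside the pathway, Gadd45g, a growth arrest gene and a marker used to name basal clusters, was higher in the cells with Dll1 in VZ (423 against 99.5 CPM, log2 2.02 ± 0.15, adjusted p = 2.51e-39) and basal progenitors (332 against 185 CPM, log2 0.87 ± 0.07, adjusted p = 2.39e-33). Gsx1, a homeobox factor of ventral progenitors, was also higher in both (log2 2.05 ± 0.37 and 1.07 ± 0.18), and 58 genes passed in both classes. Rasgef1b, Lmtk2 and Lzts1 completed the named genes that were higher in VZ cells, at log2 1.92 to 2.34, and Btg2, a gene of dividing cells about to make neurons, Igdcc4 and Creb5 those in basal cells, at 0.84 to 0.97. Lower in VZ cells with Dll1 were Hmga2, a chromatin protein of early progenitors, Samd4, Rasa3 and Bcl2, at means of 1.57 to 6.35 CPM in those cells, around or under the 6.13 CPM that 3 counts over the group make, so no folds are given for them. Flywch2 had 0 UMIs in VZ cells with Dll1 and 16.5 CPM in those without, at least 2.69-fold lower with the 0 taken as 3 counts over the group. Lower in basal cells were 2510002D24Rik, Nap1l5, Plxna4, Hist1h3b and Erbb4, at log2 -1.59 to -0.97.

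Of the wider pathway list, 1 of 33 genes tested was higher in VZ cells with Dll1 and 2 of 35 in basal cells, against 1.27 and 0.766% of all genes, and 0 were lower in either. The Fringe enzyme Mfng was one of those in basal cells (log2 0.4 ± 0.09, edgeR, adjusted p = 0.000761). At an unadjusted p under 0.05 there were 7 and 6 genes of the list (13.2 and 11.5% of all genes).

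Of the 47 genes of the wider list, 42 were tested between classes. From VZ to basal cells 15 were higher, 15 lower and 12 did not pass, with a median of 0.07, where 64.3% of all genes differed (33.2% higher, 31.1% lower). The higher ones included Myt1, a zinc finger factor of the same family as St18 (59.5 against 11.8 CPM, log2 2.41 ± 0.07), the ligand-like Dner (37.5 against 14.1 CPM, 1.51 ± 0.07) and Mfng (121 against 56.4 CPM, 1.19 ± 0.07). Lower were Lfng, the sister enzyme of Mfng (5.92 against 35.8 CPM, log2 -2.55 ± 0.11), the Deltex gene Dtx4 (-2.12 ± 0.11), the feedback inhibitor Nrarp (28.2 against 115 CPM, -1.95 ± 0.07), Dlk1 (-1.84 ± 0.13) and the coactivator Maml2 (-0.79 ± 0.11). Thus Mfng and Lfng changed in opposite directions between these classes, while the third Fringe gene, Rfng, did not pass (log2 0.12 ± 0.11, adjusted p = 0.361).

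From basal cells to newborn neurons 17 genes of the list were higher and 15 lower, where 72.9% of all genes differed (36.6% higher, 36.3% lower). Dtx1 (log2 1.78 ± 0.09), Maml3 (1.14 ± 0.07), the γ-secretase subunit Aph1b (1.07 ± 0.07), Dner (1.01 ± 0.05) and Dtx3 (0.96 ± 0.06) led the higher genes with at least 10 CPM in the higher class, and the lower ones included Nrarp (-2.09 ± 0.09), the Groucho corepressor Tle1 (-1.51 ± 0.06), Cbfa2t2 (-0.68 ± 0.08) and Mfng (-0.67 ± 0.06). From newborn to maturing neurons 14 were higher and 17 lower, where 59.3% of all genes differed (28.7% higher, 30.5% lower). These counts are near the shares over all genes. Dlk1 (log2 2.88 ± 0.14), Tle4 (2.48 ± 0.06) and Dtx4 (2.12 ± 0.15) rose most among genes with at least 10 CPM in the higher class, with Dtx1 (1.36 ± 0.07) and Dner (0.97 ± 0.05), and Mfng (-1.92 ± 0.09), Numb (-1.1 ± 0.11), Myt1 (-0.74 ± 0.05) and Adam17 (-0.72 ± 0.12) fell. The other ligands and receptor were low in VZ cells, where Dll4 averaged 0.316 ± 0.201 CPM, Jag2 1.14 ± 0.728 CPM and Notch4 4.36 ± 1.15 CPM. In maturing neurons Jag2 averaged 8.77 ± 0.892 CPM (log2 1.87 ± 0.21 against newborn cells, adjusted p = 3.61e-09) and Notch4 6.19 ± 1.36 CPM (0.54 ± 0.19, 0.0169).

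VZ cells called G1 and G2M from their cell cycle genes were also compared, a split that largely follows cluster 17. Dll1 was at 51.6, 78.1, 68.6 and 39.3 CPM in cells called G1 and at 16.5, 28.8, 17.6 and 14.6 CPM in cells called G2M (log2 -1.52 ± 0.16, edgeR, adjusted p = 2.55e-09), with no overlap. Dll3 went from 79.2, 64.7, 73.6 and 53.8 CPM to 16.7, 16.9, 9.03 and 16.4 CPM (log2 -2.11 ± 0.18, adjusted p = 8.49e-12), and Hes6 was lower in G2M as well (log2 -1.14 ± 0.1, adjusted p = 1.23e-11). Hes5 was at 1004, 724, 885 and 1117 CPM in G1 and at 716, 726, 836 and 744 CPM in G2M, and passed narrowly (log2 -0.18 ± 0.07, adjusted p = 0.0417), as did Hes1 in the other direction (0.35 ± 0.13, 0.0348). In this comparison 38.2% of 10248 genes differed, 20% higher and 18.2% lower, and 1 of the 10 genes was higher and 4 lower.

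Of the 381 VZ cells in G1, 75.6% were in cluster 17, against 6.88% of those in G2M, so phase and cluster are largely the same split. Leaving cluster 17 out kept the lower Hes6 (log2 -0.73, adjusted p = 0.00733) and the direction of Dll1 (-0.77, 0.186) and Dll3 (-0.86, 0.223) without a call, and turned Hes5 (1.08, adjusted p = 2.18e-07) and Hes1 (-0.61, 0.014). In that setting 2 of the 10 genes passed as higher and 3 as lower, Hes5, Hes6 and Hes1 among them. Of all 9328 genes tested there, 1144 passed, 776 higher and 368 lower. The calls for both targets were also lost without null replicate 1 or without WT replicate 2, and that for Hes1 without WT replicate 1. No direction is read for either target.

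Between null and WT no gene of the 10 passed in progenitors, where 3 of 13472 genes (0.0223%) did in edgeR, 0.0148% higher and 0.00742% lower, and 341 in DESeq2, which also called 0 of the 10. An unadjusted p under 0.05 was found for 3 of the 10, against 17.7% of all genes. Notch3 was at 16.6 and 17.8 CPM in the null libraries and at 10.4 and 9.51 CPM in the WT libraries (log2 0.59 ± 0.13, edgeR, adjusted p = 0.101). Notch1 was at 274 and 325 against 203 and 194 CPM (0.39 ± 0.11, adjusted p = 0.164), and Jag1 at 21.8 and 24.9 against 16.2 and 13.5 CPM (0.45 ± 0.13, 0.167). In these 3 genes both null values lay above both WT values, as they did for Notch2, Dll3 and Hey1, so for 6 of the 10 in all on this scale, against 48.6% of all genes tested, which is near the background. Hes5 was at 389 and 348 against 423 and 376 CPM (-0.31 ± 0.14, 0.296), Dll1 at 48.2 and 63.4 against 52.8 and 48.2 CPM (-0.06 ± 0.13, 0.828), and Dll3 at 68.4 and 59.9 against 58.8 and 56.8 CPM (-0.04 ± 0.14, 0.904). VZ cells made up 12.96 and 13.15% of the null libraries and 11.66 and 10.43% of the WT libraries. For basal cells these shares were 28.28 and 23.98% against 27.05 and 26.43%. In VZ cells alone Hes5 was at 832 and 740 against 916 and 899 CPM. In basal cells alone it was at 155 and 146 against 190 and 158 CPM. Genotype was not tested within either class, nor was the part of this makeup in the summed values. Scaling by library totals alone moved the median of all genes by 0.19, so the CPM values and fitted differences are not on the same footing.

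Leaving out either null library moved the count of the 10 genes past the threshold. The first left out was the library labelled null replicate 2, which had the highest St18 of the 4. Without it 3 of the 10 genes passed in progenitors, Notch3 (log2 0.6, adjusted p = 0.0218), Notch1 (0.34, 0.00919) and Hes6 (0.31, 0.0449), and 1152 genes in all. Without null replicate 1, 5 passed: Notch1, Jag1, Notch2 and Notch3 higher and Hes5 lower (-0.46, 0.00298), with 3682 genes in all. Each of these fits has 1 null library, assumed to vary like the WT pair. Hes6 was higher in null replicate 1 (190 CPM) than in the WT libraries (148 and 133 CPM), while null replicate 2 (142 CPM) lay between them.

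In neurons 0 of the 10 genes passed, where 76 of 13443 genes (0.565%) did, 0.119% higher and 0.446% lower, and 1 had an unadjusted p under 0.05, against 18.1% of all genes. This was Notch1, at 46.7 and 49.97 against 34.1 and 31.4 CPM (log2 0.41 ± 0.12, adjusted p = 0.15). The neuron group drew on different shares of clusters in the genotypes, as given above. Newborn cluster 8, with a higher share in both null libraries, had Notch1 at 63.2 CPM, and cluster 5, also higher, had it at 37.9 CPM. Of the clusters with a lower share in both null libraries, cluster 1 had Notch1 at 35 CPM and cluster 6 at 22.4 CPM. Cluster 0, also lower, had the highest Notch1 of the neuron clusters, 109.2 CPM. The part of this makeup in the Notch1 value was not tested. Without null replicate 2 it passed (0.42, 0.0247) together with Hes6 (0.29, 0.0367), and without null replicate 1 it passed (0.43, 0.00791) with lower Hes5 and Hes6. In these fits 1016 and 3418 genes passed in all, against 76 with all 4 libraries. Whether the genotype difference itself differed between neurons and progenitors was tested as an interaction, in which 0 of 10 passed (66 of 14238 genes, 0.464%, with 0.386% higher and 0.0773% lower) and 3 had an unadjusted p under 0.05 (8.41% of all genes), with Hes5 nearest (log2 0.31 ± 0.09, adjusted p = 0.199), and 0 passed without null replicate 2 as well. The wider list had 0 of 41 genes past the threshold in either cell group. At an unadjusted p under 0.05 there were 9 in progenitors and 6 in neurons, against 17.7 and 18.1% of all genes.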

How the data were processed

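The starting point was the deposited Cell Ranger matrices, UMI counts per gene and barcode of 10x Genomics libraries that the authors deposited unfiltered, aligned to GRCm38 (Cell Ranger 5.0.1 in the submitters' processing notes, while the headers of the matrices name release 4). All further steps were run on these counts. Barcodes were kept from 3000 UMIs and 200 genes upward and up to a mitochondrial share of 10%, and the highest Scrublet scorers (scanpy 1.11.5) were removed, 120 to 352 cells per library in proportion to its size, because the tool's own threshold marked at most 0.0443% of a library. Cells were clustered in Seurat 5.3.0 (2000 variable genes without the 10 genes and the wider list, 49 components, resolution 1.4), once for all comparisons, and clusters were named from fixed markers. The members, lists and tests were chosen with earlier results of these data known. The rule that left 2 clusters unnamed by phase was chosen after seeing the data.

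Sums of UMI counts for each class in each library were formed, and classes, Dll1 sets and phases were compared with edgeR 4.0.16 (quasi-likelihood F-test, TMM, filterByExpr, two-sided, Benjamini-Hochberg over all genes tested, threshold 0.05) with library as a block, and genotypes without it. Dll1 sets and shares used cells thinned to 3000 UMIs. CPM are raw counts over summed totals, and intervals (exact Poisson, Clopper-Pearson, 95%) cover counting error only. Beside the 10 genes, up to 5 genes per direction were named by largest log2 change among those past the threshold with at least 10 CPM in the higher class, from the wider list between classes and from all genes in the Dll1 comparisons (there with the same direction in every library), and the 4 genes most correlated with each of Dll1, Jag1, Hes5 and Hes6 over clusters. A gene of the wider list that this rule selected is counted but not reported here by name. The fits of basal against VZ cells, null against WT in progenitors, the interaction, basal Dll1 sets and phase were also run on simulated counts. These counts were drawn from the fitted spread without differences between libraries, and the outcome is not given here. The other comparisons were not simulated. Alternatives were RLE and total scaling, DESeq2 1.42.0, no filter on low counts, each library left out, doublet-scored cells kept, 5000 UMIs and no library block.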

Additional observations from a re-analysis of the deposited data

How the results depend on the processing

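All 10 genes kept their direction and their call between VZ and basal cells and between basal and newborn cells under all 13 settings. Of the single-gene values under the alternatives, 858 kept direction and side of the threshold, 36 lost the call, 28 gained it and 54 changed sign, and the causes were not tested. The alternatives with cluster 17 left out or the 2 unnamed clusters placed were chosen after seeing the data, and leaving out clusters led by markers of another class removed none. No paired analysis was possible because the labels number no replicates: the numbers used here follow sample order, serve as names and pair no libraries. The paper calls the WT embryos littermate controls, but the labels give no litter, so litters shared between libraries could not be taken into account.

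The count of the 10 genes past the threshold between null and WT in progenitors, 0, became 2 with totals alone, 2 without the filter and 0 to 5 with 1 library left out, and in neurons, 0, it became 1 with totals alone and 0 to 3. In the interaction it became 1 at 5000 UMIs. For Dll1 sets in VZ cells the 3 calls became 5 at 5000 UMIs and 4 with doublet-scored cells kept, 2 of these 4 lower. They became 2 in DESeq2, which gave no adjusted p for Dll3, 2 without the library block and 1 without cluster 17. In basal cells the 2 calls became 3 at 5000 UMIs, 1 in DESeq2, 0 without the library block and 1 to 2 with 1 library left out. For phase the 5 calls became 3 in DESeq2, 3 at 5000 UMIs, 3 without the block and 3 to 5 with 1 library left out. The median co-detection ratio of Dll1 and Hes5 in VZ cells, 0.827, was 0.874 at 5000 UMIs, still below 1 in 4 of 4 libraries.

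With scaling by library totals alone, the log2 difference took the other sign for Hes6 0.03 in maturing against newborn neurons, Dll3 0.15, Hes1 0.15 and Dll1 0.14 in null against WT in progenitors, Hes5 0.12 in null against WT in neurons, Notch1 -0.03 and Notch3 0 in the interaction of genotype and class, Notch1 -0.01 in G2M against G1. With doublet-scored cells kept, the log2 difference took the other sign for Hes6 0.01 in maturing against newborn neurons, Hes1 0.44 in basal cells with against without Dll1, Jag1 0.07, Hey1 0.05 and Hes5 0.13 in G2M against G1. With at least 5000 UMIs per cell, the log2 difference took the other sign for Hes5 0.14 in null against WT in neurons, Hes6 0.06 in the interaction of genotype and class, Hey1 0 in G2M against G1. With the 2 unnamed clusters in the class they scored for, the log2 difference took the other sign for Hes6 0.04 in the interaction of genotype and class. Without the filter on low counts, the log2 difference took the other sign for Notch1 -0.06 and Notch3 -0.04 in the interaction of genotype and class, Notch1 -0.04 in VZ cells with against without Dll1, Hey1 0.04 in G2M against G1. With cluster 17 left out, the log2 difference took the other sign for Notch1 -0.15 in VZ cells with against without Dll1, Hey1 0.61, Hes5 1.08, Hes1 -0.61 and Notch3 -0.04 in G2M against G1. With thinning to 5000 UMIs, the log2 difference took the other sign for Notch3 0.48 in basal cells with against without Dll1. Leaving out 1 library at a time moved the log2 difference across 0 for these ranges. In maturing against newborn neurons they were Hes6 -0.05 to 0. In null against WT in progenitors they were Hes6 -0.25 to 0.31, Hey1 -0.03 to 0.13, Dll3 -0.21 to 0.12, Hes1 -0.24 to 0.17 and Dll1 -0.2 to 0.07. In null against WT in neurons they were Hes6 -0.29 to 0.29, Hey1 -0.54 to 0.32, Hes5 -0.34 to 0.26, Dll3 -0.05 to 0.32 and Dll1 -0.01 to 0.33. In the interaction of genotype and class they were Hes6 -0.1 to 0.06, Notch1 -0.07 to 0.09, Hey1 -0.49 to 0.23, Notch2 -0.05 to 0.24 and Notch3 -0.11 to 0.12. In VZ cells with against without Dll1 they were Notch1 -0.05 to 0.08. In basal cells with against without Dll1 they were Hes5 -0.02 to 0.15, Hes1 -0.42 to 0.15 and Notch3 -0.47 to 0.31. In G2M against G1 they were Hey1 -0.14 to 0.1 and Notch2 -0.02 to 0.19.

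Counts over all genes moved further. In progenitors the 3 genes past the threshold became 208 with totals alone, 341 in DESeq2, 944 without the filter and 52 to 3682 with 1 library left out. In neurons the 76 became 372, 321, 705 and 53 to 3418, 11 with doublet-scored cells, 9 at 5000 UMIs and 11 with the unnamed clusters, and in the interaction the 66 became 31, 28, 138 and 25 to 124. For Dll1 in VZ cells the 249 became 81 in DESeq2, 103 to 159 with 1 library left out, 144 with doublet-scored cells, 585 at 5000 UMIs, 60 without the block and 68 without cluster 17. In basal cells the 194 became 37 in DESeq2, 85 to 169 with 1 library left out, 588 at 5000 UMIs and 1 without the block, and for phase the 3918 became 2163, 2415 without the block and 1144 without cluster 17. Without the library block the 7988 genes between newborn and maturing neurons became 5192. With totals alone the share of higher genes among those past the threshold went from 66.7 to 74% between genotypes in progenitors, 21.1 to 76.6% in neurons, 83.3 to 58.1% in the interaction, 42.6 to 56.2% for Dll1 in VZ cells (54.8% with RLE) and 52.4 to 39.4% for phase.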
